A study of Homo sapiens with 16 samples.

Results

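VE-822, an inhibitor of the checkpoint kinase ATR, was compared with no drug in U2OS cells, a human osteosarcoma line. The comparison used 8 of the 16 RNA-seq libraries of the series: 4 from cells given 2 µM VE-822 for 4 h and 4 from untreated cells. Within each of these arms, 2 libraries came from cells transfected with a non-targeting siRNA (siNT) and 2 from cells transfected with an siRNA against SETD2 (siSETD2), the methyltransferase that places trimethylation on lysine 36 of histone H3. Treatment was given 48 h after transfection. All groups had therefore received an siRNA, and no untransfected cells were among the libraries. The remaining 8 libraries came from cells given 2 mM hydroxyurea (HU), which inhibits ribonucleotide reductase, alone or together with VE-822, and they served here as a second setting of the same inhibitor. Libraries carry the labels R1 and R2 within each group. No label names R1 and R2 as separate cultures. The p-values therefore measure how far these libraries scatter, and that scatter may be technical. The siRNA check used SETD2 itself, whose level per length (FPKM, fragments scaled to transcript length and library depth) in siNT libraries was 8.40 and 8.06 untreated and 9.25 and 8.87 with VE-822, against 2.01 and 4.17 untreated and 4.62 and 3.95 with VE-822 in siSETD2 libraries. Every siSETD2 library lay below every siNT library.

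ATR is activated by single-stranded DNA at stalled or damaged replication forks. It phosphorylates CHK1, the kinase encoded by CHEK1, which restrains CDC25 phosphatases and so holds back cyclin-dependent kinases, late origin firing and mitotic entry. In unperturbed cells ATR also limits origin firing and entry into mitosis during S phase. ATR inhibitors are given to cancer cells with DNA-damaging or fork-stalling drugs, of which HU is the laboratory standard.

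The 4 VE-822 libraries may be a separate batch. The labels give no sequencing date or batch, but these libraries stood apart from the other 12 in ways that VE-822 in the presence of HU did not repeat. On the 1st principal component, which held 46.1% of the variance, they lay at 29.46 to 35.27, and the other libraries lay between -33.32 and 7.23. In the HU-treated groups and the untreated groups the R2 libraries shared a deviation from the R1 libraries, whereas R1 and R2 of VE-822 alone lay close together. The share of fragments in protein-coding genes was 94.0 to 94.3% with VE-822 and 94.7 to 95.5% untreated, without overlap, and the share in mitochondrial transcripts was 15.9 to 19.2% against 13.2 to 18.5%. Depth was 24987647 to 31101932 recovered fragments with VE-822 and 23463731 to 24643430 untreated. Because all 4 libraries of the arm share this position, a batch and the treatment cannot be told apart in the comparison of VE-822 with untreated cells. The difference between R2 and R1 could be measured in the 8 HU libraries, which the comparison does not use, and is given beside the results as R2 minus R1. Its part in the results was not tested.

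**Figure D1:**
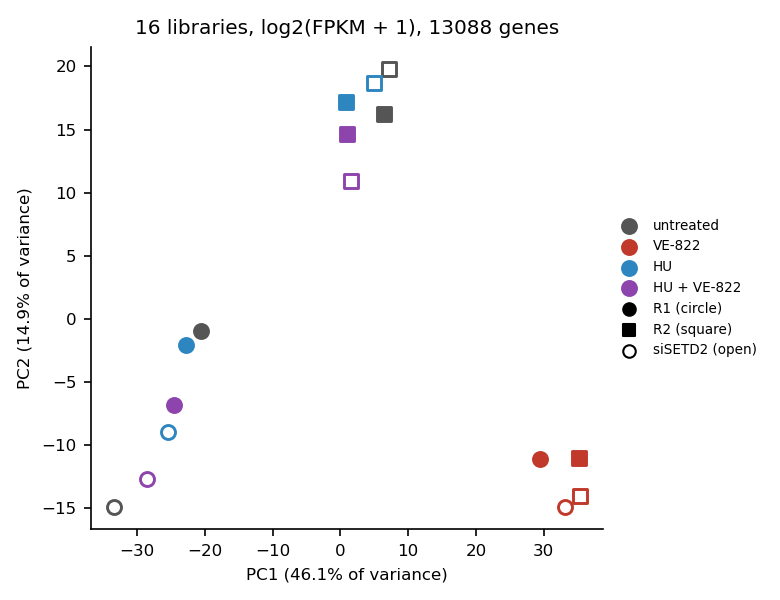
Position of the 16 libraries on the first 2 principal components of log2(FPKM + 1) (axes, with the percent of variance). Colours mark treatment, circles R1, squares R2, filled symbols siNT and open symbols siSETD2. The 4 VE-822 libraries lie together at 29.46 to 35.27 on the horizontal axis, and the other 12 split into an R1 and an R2 set.

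Genes were tested when their FPKM averaged 1 or more across all libraries, which left 13088. Of these, 1486 (11.4%) rose and 1751 (13.4%) fell with VE-822, averaged over both siRNAs. The 3237 genes called at an adjusted p under 0.05 make up 24.7% of those tested, and 5060 (38.7%) had an unadjusted p under 0.05. Changes were mostly small: the median size among called genes was 0.53 on the log2(FPKM + 1) scale, and 355 genes passed with a size of at least 1, of which 233 rose and 122 fell. On this scale the change of genes with low FPKM is understated. All 4 VE-822 libraries lay above all 4 untreated libraries for 1910 genes (14.6%) and below them for 2163 (16.5%). For 1063 genes (8.12%) they lay above, and for 1402 (10.7%) below, all 12 other libraries, HU with VE-822 included. The count of called genes depended on which untreated libraries were used. List counts below against R1 or R2 alone, or without 1 library, are to be read beside the changes over all genes given here. Against R1 alone, 1967 genes (15.0%) rose and 2541 (19.4%) fell, and against R2 alone 822 (6.28%) rose and 999 (7.63%) fell. Leaving out 1 library at a time gave 1772 to 4599 called genes. The count dropped by over 1.5 times, to 1772 to 2132, without siNT untreated R1 or without any 1 of the 4 VE-822 libraries.

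The measured difference was much smaller when the same inhibitor was added to HU, in libraries that share none with the comparison above. The median size of the difference over all genes was 0.23 for VE-822 alone and 0.11 for VE-822 added to HU, beside 0.18 for R2 minus R1. The value for VE-822 alone may hold a batch difference, which cannot be told apart from the treatment. Added to HU, VE-822 changed 1 gene (0.00764%), CENPA, and 1092 (8.34%) had an unadjusted p under 0.05. With the shared R2 minus R1 difference taken into the fit, which the numbering of the HU libraries allows, 172 genes (1.31%) were called, 92 higher and 80 lower. The difference between the responses without and with HU passed the test for 1297 genes (9.91%). Of these, 639 (4.88%) were more positive and 658 (5.03%) more negative without HU. Of the 3237 genes called with VE-822 alone, 1209 were among the 1297. Across the 13088 genes, which are not independent replicates, the responses had a Pearson correlation of 0.0428, and 47.1% of the 3237 called genes had the same sign with HU, against 46.3% of all genes. The response to VE-822 alone had a correlation of 0.446 with R2 minus R1, and 70.9% of called genes had the sign of R2 minus R1, against 64.8% of all genes. Both correlations depended on the controls. With only untreated R2 libraries as controls they were 0.134 with the HU response and 0.126 with R2 minus R1. The responses measured against R1 alone and against R2 alone had a correlation of 0.656.

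**Figure D2:**
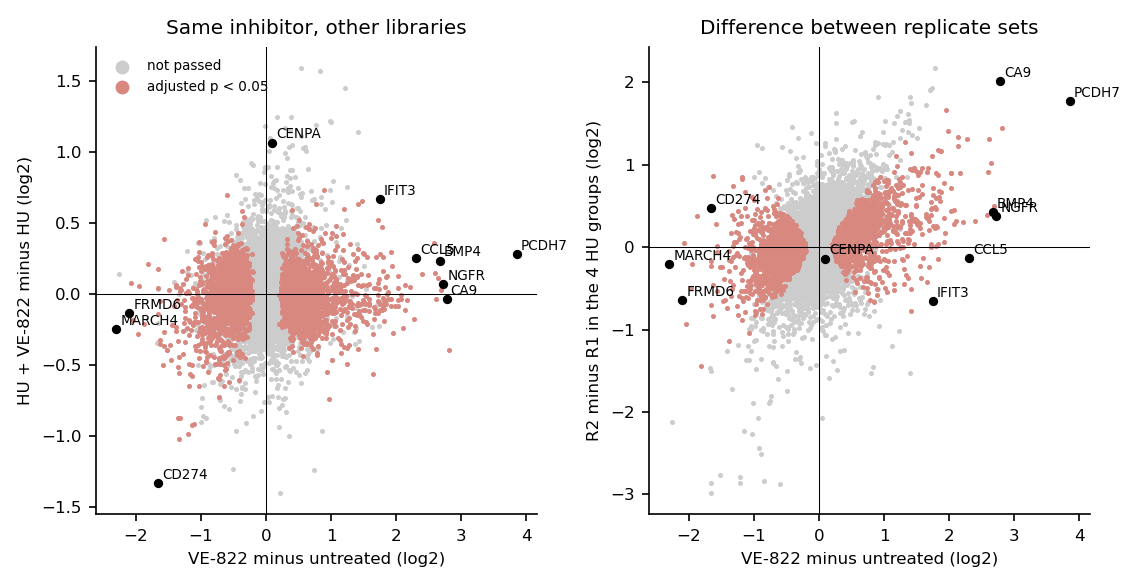
Each point is 1 of 13088 genes. The horizontal axis is the log2(FPKM + 1) difference between VE-822 and untreated cells over both siRNAs, and the vertical axes are the difference between HU with VE-822 and HU (left) and R2 minus R1 over the 4 HU groups (right). Red points passed an adjusted p under 0.05 on the horizontal axis. CD274 lies low on both axes of the left panel at -1.66 and -1.33, whereas PCDH7, BMP4, NGFR and MARCH4 lie near 0 on its vertical axis.

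CD274, which encodes the immune checkpoint ligand PD-L1, fell with VE-822 in both settings. In siNT cells its level was 7.56 and 9.70 FPKM untreated and 2.20 and 1.79 FPKM with VE-822, and in siSETD2 cells it was 9.01 and 10.6 FPKM untreated and 2.59 and 2.34 FPKM with VE-822. Every VE-822 library lay below every untreated library, with means of 2.23 ± 0.34 and 9.22 ± 1.3 FPKM (SD, n = 4 each). The fall was -1.66 log2 (SE 0.18, adjusted p = 0.000196). In HU the level was 7.40, 10.4, 10.5 and 12.3 FPKM, and with VE-822 added it was 2.23, 4.77, 2.85 and 4.09 FPKM, in the order siNT R1, siNT R2, siSETD2 R1, siSETD2 R2. These libraries did not overlap either, and the fall of -1.33 had an adjusted p of 0.0911, or 0.000583 with the R2 minus R1 term. The difference between both falls was -0.33 (adjusted p = 0.419). R2 minus R1 for CD274 was 0.47, the opposite sign to the fall. The gene lies at chr9:5450503-5470566 (hg38, plus strand). The 250 bases before its RefSeq start (GRCh38.p14, chr9:5450292-5450541, plus strand) hold 2 overlapping matches to the interferon response element (a pair of GAAA blocks with 2 bases of any kind between them), searched on both strands and shown in capitals, which begin 208 and 202 bases before the start:
CD274: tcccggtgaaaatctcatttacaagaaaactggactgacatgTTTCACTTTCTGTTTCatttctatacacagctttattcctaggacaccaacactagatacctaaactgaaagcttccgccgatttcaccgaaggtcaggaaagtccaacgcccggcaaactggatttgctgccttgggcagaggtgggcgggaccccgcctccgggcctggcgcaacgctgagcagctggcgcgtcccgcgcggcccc
Of 27305 RefSeq promoters of the same length, 3.07% hold at least 1 such match. A match is a description of these letters and not evidence of binding.

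CD274 was 1 of 60 genes called both with VE-822 alone and, with the R2 minus R1 term, when it was added to HU. These 60 were 34.9% of the 172 genes, beside 24.7% of all tested genes called with VE-822 alone. They were 1.85% of the 3237, beside 1.31% of all tested genes called when it was added to HU. The direction was shared by 46 of them, 12 higher and 34 lower, and was opposite for 14. The genes named here were chosen after their values were seen. Falling in both settings were PEAR1 (-1.58 alone, -0.50 with HU), a platelet and endothelial receptor, DGKA (-1.47, -0.47), a diacylglycerol kinase, FHOD1 (-1.05, -0.36), a formin that bundles actin, and ULBP2 (-0.92, -0.47), a stress ligand for the NKG2D receptor of natural killer cells. ULBP2 read 14.5, 14.0, 15.2 and 11.4 FPKM untreated and 8.33, 7.25, 5.94 and 5.76 FPKM with VE-822, and in HU it went from 19.0, 15.8, 15.3 and 14.5 to 13.2, 11.3, 10.2 and 10.7 FPKM. Its groups did not overlap in either setting. Rising in both were IFIT3 (1.75, 0.67), INSIG1 (0.90, 0.73), which retains the sterol sensor complex in the endoplasmic reticulum, and NAB2 (0.40, 0.59), a corepressor of EGR factors. The rise of NAB2 was lost without either the siNT or the siSETD2 VE-822 R2 library (adjusted p up to 0.0660). For 34 of the 46 genes the size of the change was smaller with HU. The test of the difference was passed by 9 of the 46, against 9.91% of all genes. R2 minus R1 had the sign of the shared change for 22 of the 46.

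Among the 14 genes called in opposite directions were CYP24A1 (2.81 alone, -0.39 with HU), SEMA3C (1.65, -0.56), a secreted semaphorin, TNFRSF9 (1.25, -0.49), the costimulatory receptor 4-1BB, and PEA15 (-0.94, 0.50), an adaptor that binds ERK. These too were picked after their values were seen.

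The largest rises with VE-822 alone were in genes near the floor in untreated cells. PCDH7, a protocadherin, read 0.839 and 2.17 FPKM (siNT) and 0.519 and 1.90 FPKM (siSETD2) untreated, and 27.3, 36.8, 31.5 and 31.1 FPKM with VE-822, a rise of 3.85 log2 (SE 0.58, adjusted p = 0.00123). Untreated R2 libraries were higher than R1 for this gene, and R2 minus R1 was 1.77. NGFR, the low-affinity neurotrophin receptor, read 0.311, 0.621, 0.219 and 0.928 FPKM untreated and 6.5, 9.39, 10.0 and 10.1 FPKM with VE-822, a rise of 2.72 (SE 0.19, adjusted p = 1.29e-05). BMP4, a ligand of the bone morphogenetic protein receptors, read 2.86, 7.50, 3.38 and 5.43 FPKM untreated and 33.3, 40.4, 30.5 and 33.3 FPKM with VE-822, a rise of 2.67 (SE 0.26, adjusted p = 8.81e-05). For each of these 3 genes all 4 VE-822 libraries lay above the other 12. MAF, a basic leucine zipper factor, rose by 2.58 from 0.704, 1.16, 0.747 and 1.05 FPKM to 10.0, 12.5, 9.59 and 9.79 FPKM. EREG, an EGF receptor ligand, rose by 2.40 from 3.30, 4.52, 4.25 and 3.0 FPKM to 27.8, 25.6, 23.3 and 19.8 FPKM. With HU, the same 5 genes differed by 0.28, 0.07, 0.24, 0.36 and 0.14 on adding VE-822, and none of these passed with or without the R2 minus R1 term. The difference between settings passed the test for all 5 (2.23 to 3.57, adjusted p from 0.000495 to 0.0225).

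Other large rises were CYP24A1 (2.81), the vitamin D 24-hydroxylase, CA9 (2.78), a hypoxia-induced carbonic anhydrase, HTR3A (2.69), a serotonin receptor subunit, CHI3L1 (2.64), a secreted chitinase-like protein, IGFBP5 (2.62) and CCL5 (2.31), a chemokine. R2 minus R1 in the HU libraries was 2.02 for CA9, 1.45 for CYP24A1, 1.31 for IGFBP5 and 1.03 for CHI3L1, the same direction as the rise, and 0.50 and -0.13 for HTR3A and CCL5. CA9 read 0.0747 and 0.0945 FPKM in untreated R1, 3.56 and 2.21 FPKM in untreated R2, and 11.2 to 16 FPKM with VE-822. Measured against R1 only, its rise was 3.69, and against R2 only it was 1.87 (adjusted p = 0.179). The call of CA9 was lost when any library but the R2 untreated ones was left out (adjusted p up to 0.0823). Rises of NGFR (2.97 and 2.48), BMP4 (3.10 and 2.25), MAF (2.73 and 2.44), EREG (2.39 and 2.41) and CCL5 (2.03 and 2.59) depended less on whether R1 or R2 served as control.

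MARCH4, a membrane E3 ubiquitin ligase, had the largest fall. It read 29.4 and 18.5 FPKM (siNT) and 21.8 and 19.0 FPKM (siSETD2) untreated, and 4.53, 3.19, 3.43 and 3.49 FPKM with VE-822, a change of -2.30 (SE 0.15, adjusted p = 1.29e-05). FRMD6, an upstream component of the Hippo pathway, read 36, 19.6, 32.2 and 20.1 FPKM untreated and 5.69, 4.58, 5.73 and 5.16 FPKM with VE-822, a change of -2.11 (SE 0.26, adjusted p = 0.000429). TUFT1, tuftelin, read 11.5, 11.0, 10.8 and 11.7 FPKM untreated and 3.23, 2.91, 2.80 and 2.61 FPKM with VE-822, a change of -1.66 (SE 0.10, adjusted p = 1.11e-05), and was the most even gene of the 3 across untreated libraries. In all 3 the VE-822 libraries lay below the other 12. Adding VE-822 to HU moved them by -0.24, -0.13 and -0.14, and the difference between settings passed for each (-2.06, -1.98 and -1.52, adjusted p from 0.000330 to 0.0108). Further large falls were ESM1 (-2.04), an endothelial proteoglycan, G0S2 (-1.67), an inhibitor of the lipase ATGL, HES7 (-1.66), a transcriptional repressor of the Notch pathway, and 5 noncoding genes or pseudogenes: AC119751.6 (-2.07), AC090409.1 (-1.96), SNX18P24 (-1.96), ZNF542P (-1.87) and AC243829.2 (-1.81). ESM1 read 83.8 and 129 FPKM in untreated R1 but 19.8 and 19.2 FPKM in untreated R2, and 6.23 to 16.4 FPKM with VE-822, and its fall was -3.22 against R1 and -0.87 against R2 (adjusted p = 0.203). The calls of ESM1 and AC243829.2 were lost when 1 library was left out, in 6 and 7 of 8 cases (adjusted p up to 0.114 and 0.149), in each case by leaving out any VE-822 library. No source used here states that counting was by strand. Reads of a gene therefore cannot be told apart from those of genes annotated on the opposite strand at the same place. Genes named here with such an overlap include ZNF542P, AC243829.2, MARCH4, FRMD6, NGFR, CCL5, PCDH7, CA9, IGFBP5, G0S2, CXCL10, CHEK1 and PHLDA1.

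**Figure D3:**
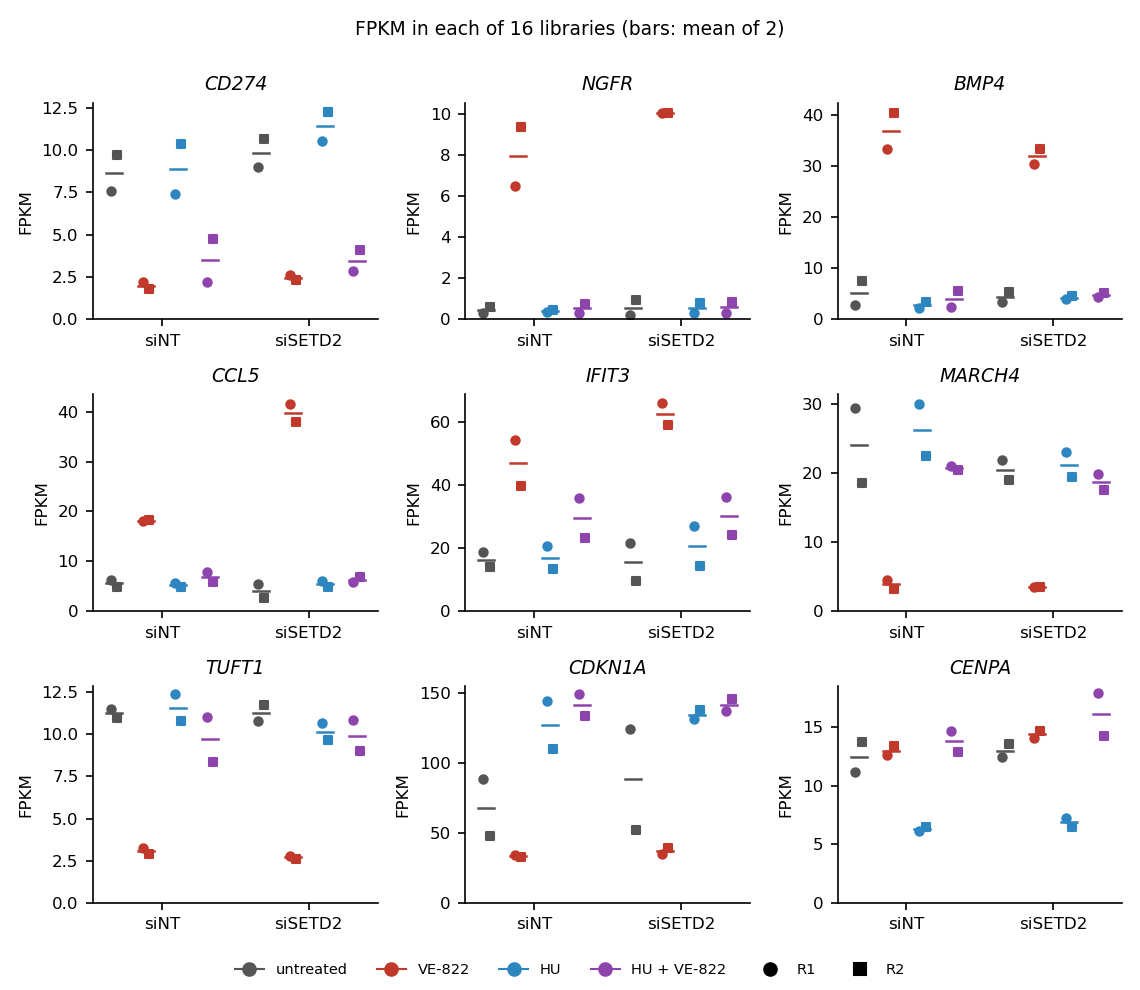
FPKM (vertical axes, linear from 0) of 9 genes in each of the 16 libraries, by siRNA and treatment. Circles are R1, squares R2, and short bars the mean of both. CD274 is low with VE-822 and with HU plus VE-822, NGFR, BMP4, CCL5, MARCH4 and TUFT1 are displaced with VE-822 alone, and CENPA is low with HU alone.

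Genes of the ATR pathway and of its known cell cycle outputs moved little with VE-822 alone. ATR itself read 4.13 to 5.14 FPKM untreated and 4.15 to 4.79 FPKM with VE-822, a difference of -0.01 (SE 0.11, adjusted p = 0.944). Of 26 tested genes of the ATR and CHK1 axis, 2 rose (7.69%) and 2 fell (7.69%), with a median of 0.05 against -0.03 over all genes. CHEK1 rose by 0.52, from 3.60, 4.44, 3.91 and 4.04 FPKM to 6.78, 5.58, 6.37 and 5.84 FPKM, without overlap. CDC7, the kinase that fires origins, rose by 0.71, and CDC25A, the phosphatase that CHK1 restrains, fell by 0.49, from 14.3, 12, 14.1 and 11.4 FPKM to 9.40, 9.08, 8.48 and 8.5 FPKM. CDC25A kept its call without any 1 library. CHEK1 and CDC7 lost theirs without siNT untreated R1, siNT VE-822 R1, siSETD2 untreated R1 or either siSETD2 VE-822 library (adjusted p up to 0.0972 and 0.114), and CDC7 also without siNT VE-822 R2. WEE1, the kinase that inhibits CDK1, differed by 0.16 (adjusted p = 0.313), and CLSPN, the mediator between ATR and CHK1, by 0.46 (adjusted p = 0.170).

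Of 73 tested E2F targets of the G1/S transition, 2 rose (2.74%, against 11.4% of all genes) and 6 fell (8.22%, against 13.4%), with a median of 0.02 that became -0.02 when FPKM was recomputed from recovered totals. Among them CCND1, cyclin D1, fell by 0.65 (SE 0.13, adjusted p = 0.00549), and BRCA2 rose by 0.33. CCNE1, cyclin E1, fell by 0.56 and CDC6, a licensing factor, by 0.35, and both calls were lost in 6 of 8 fits that left out 1 library, including each of the 4 VE-822 libraries (adjusted p up to 0.0985 and 0.109). BRCA2 lost its call without siNT untreated R1, siNT VE-822 R1 or either siSETD2 VE-822 library (adjusted p up to 0.0695). E2F1 (0.63, adjusted p = 0.210), CCNE2 (0.28, 0.352), MCM5 (0.23, 0.526) and PCNA (0.11, 0.639) did not pass. The list's median R2 minus R1 was 0.32. Among 26 genes of deoxynucleotide supply 1 rose (3.85%, against 11.4% of all genes) and 4 fell (15.4%, against 13.4%). The falls numbered 8 against R1 alone and 2 against R2 alone. They were 8 without siSETD2 untreated R2, 5 without siNT VE-822 R1 and 2 without any 1 of the other 6 libraries. RRM2, the ribonucleotide reductase subunit made in S phase, fell by 0.43 (adjusted p = 0.0267), a call lost in 6 of 8 fits without 1 library (adjusted p up to 0.104; it held without siNT VE-822 R1 and without siSETD2 untreated R2). IMPDH1 and NME1, which make and phosphorylate guanine nucleotides, fell by 0.61 and 0.60. Both kept their calls in each of the 8 fits, with falls between -0.70 and -0.52 for IMPDH1 and between -0.79 and -0.41 for NME1.

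Of 67 tested G2/M genes 2 rose (2.99%, against 11.4% of all genes), MKI67 by 0.70 and KIF4A by 0.35, and none fell, with a median of 0.07. MKI67 read 18.9 FPKM in siSETD2 untreated R1 against 41.0 to 51.0 FPKM in the other untreated libraries and 59.8 to 61.2 FPKM with VE-822. Its call held only with siSETD2 untreated R2 left out (adjusted p from 0.000587 to 0.131 over the 8 fits), and KIF4A lost its call in 6 of them (adjusted p up to 0.132). Against untreated R1 alone 19 G2/M genes rose, and against R2 alone none rose and 1 fell. When VE-822 was added to HU, the G2/M median was 0.36, and 17 members rose with the R2 minus R1 term, against 0.703% of all genes. The test of the difference from VE-822 alone was passed by 11 members, against 9.91% of all genes. CENPA, the centromeric histone, read 11.2, 13.7, 12.5 and 13.5 FPKM untreated and 12.6, 13.3, 14.1 and 14.7 FPKM with VE-822, so these groups overlapped (0.10, adjusted p = 0.473). In HU it read 6.12, 6.43, 7.26 and 6.49 FPKM, and with VE-822 added 14.6, 12.9, 17.9 and 14.3 FPKM, a difference of 1.07 (adjusted p = 0.00348). The settings differed by -0.97 for CENPA, -0.76 for PLK1 and -0.66 for CDC20 (adjusted p = 0.00289, 0.0179 and 0.0467). PLK1 and CDC20 differed by -0.20 and -0.21 with VE-822 alone and did not pass (adjusted p = 0.232 and 0.263).

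Among 38 tested p53 targets 5 rose and 5 fell, 13.2% each way beside 11.4% and 13.4% of all genes, so these shares were near the background. The median was -0.20. CDKN1A, the CDK inhibitor p21, read 88.1 and 47.8 FPKM (siNT) and 124 and 52.2 FPKM (siSETD2) untreated and 34.4, 32.8, 34.8 and 39.1 FPKM with VE-822. Its fall of -1.02 (SE 0.25, adjusted p = 0.0144) was lost without siNT untreated R1 or siSETD2 VE-822 R1 (adjusted p up to 0.0592), and was -1.54 against R1 and -0.49 against R2. TNFRSF10B, a TRAIL receptor, fell by 0.52, whereas PMAIP1, the BH3-only protein NOXA, and KITLG, the ligand of KIT, rose by 1.06 and 1.53. MDM2 (-0.61, adjusted p = 0.0520) and GDF15 (-0.18, adjusted p = 0.630) did not pass. Against R1 alone 17 members fell and 3 rose, and against R2 alone 2 fell and 4 rose. Without siSETD2 untreated R2 15 fell, and the other fits without 1 library gave 2 to 8. None of the 14 tested replication-dependent histone genes passed (0 higher, 0 lower), with a median of -0.37 beside a median R2 minus R1 of -0.87. Against R1 alone 4 of them fell and against R2 alone none did.

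Many interferon-stimulated genes rose with VE-822 alone. Interferon binding activates STAT and IRF factors that act on the interferon response element, and NF-kB drives many chemokine genes. Of 34 tested interferon-stimulated genes 17 rose (against 11.4% of all genes) and none fell, with a median of 0.54, and in 21 of them all 4 VE-822 libraries lay above all untreated libraries (14.6% of all genes). The count was 14 to 19 when any 1 library was left out. IFIT3, a translation inhibitor, read 18.9, 13.9, 21.7 and 9.54 FPKM untreated and 54.3, 39.7, 66.1 and 59.2 FPKM with VE-822, a rise of 1.75 (SE 0.29, adjusted p = 0.00192). BST2, tetherin, read 2.86, 1.86, 3.35 and 1.61 FPKM untreated and 8.42, 10.1, 8.31 and 9.65 FPKM with VE-822, a rise of 1.59 (SE 0.16, adjusted p = 0.000124). OASL rose by 1.37 and DTX3L, a ubiquitin ligase, by 0.87. The list's median R2 minus R1 was -0.30, the opposite sign to the rise, and against R1 alone 14 members rose and 2 fell, and against R2 alone 17 rose and none fell. With HU the median was 0.09, and 2 members rose with the R2 minus R1 term (against 0.703% of all genes), IFIT3 among them. The test of the difference was passed by 8 members, against 9.91% of all genes. IFIT3 lies on the opposite strand to LIPA, and without strand their shared reads cannot be told apart. Of the 30 members with a RefSeq promoter, 16 hold the interferon response element in the 250 bases before the start, 8 of them among the 14 that rose. The promoters of IFIT3 (chr10:89327747-89327996, plus strand) and BST2 (chr19:17405631-17405880, minus strand) are shown because both genes rose and both hold the element, marked in capitals:
IFIT3: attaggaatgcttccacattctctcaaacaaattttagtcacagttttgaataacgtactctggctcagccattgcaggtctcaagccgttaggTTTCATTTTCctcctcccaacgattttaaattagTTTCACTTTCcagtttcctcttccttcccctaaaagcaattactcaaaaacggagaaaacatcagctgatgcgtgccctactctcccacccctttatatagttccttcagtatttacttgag
BST2: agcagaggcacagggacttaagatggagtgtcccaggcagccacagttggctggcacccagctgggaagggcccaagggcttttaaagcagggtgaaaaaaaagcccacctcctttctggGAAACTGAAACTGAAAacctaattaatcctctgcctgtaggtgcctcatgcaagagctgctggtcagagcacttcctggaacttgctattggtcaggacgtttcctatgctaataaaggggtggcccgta
CD274, printed above with the same element, fell, so genes with the element moved in both directions.

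Of the NF-kB and cytokine genes, 13 of 26 rose (against 11.4% of all genes) and 1 fell (against 13.4%), with a median of 0.61. CCL5 read 6.24 and 4.87 FPKM (siNT) and 5.43 and 2.68 FPKM (siSETD2) untreated, and 18.1 and 18.3 FPKM (siNT) and 41.5 and 37.9 FPKM (siSETD2) with VE-822, a rise of 2.31 (SE 0.16, adjusted p = 1.29e-05). CXCL10, a T cell chemokine, read 0.235 to 0.354 FPKM untreated and 2.88, 1.74, 5.62 and 4.95 FPKM with VE-822, a rise of 1.80 (SE 0.15, adjusted p = 3.58e-05). BIRC3, an NF-kB-induced inhibitor of apoptosis, rose by 1.85, from 9.05, 10.2, 13.1 and 12.5 FPKM to 32.2, 31.0, 64.6 and 50.6 FPKM. These 3 kept their calls without any 1 library and against either set of untreated libraries for CCL5 (2.03 and 2.59). Adding VE-822 to HU moved CCL5 by 0.25, CXCL10 by 0.16 and BIRC3 by 0.12, none past the test, and the difference between settings passed for all 3. The number of the list's genes that rose was 7 to 14 when 1 library was left out, 8 against R1 alone and 12 against R2 alone. It dropped by over 1.5 times without siNT VE-822 R2 or either siSETD2 VE-822 library. The number of all tested genes that rose also dropped by over 1.5 times in these fits. The list's median R2 minus R1 was 0.27, the same sign as the rise. The NF-kB site, searched on either strand, is in 7 of the 22 members with a promoter and in 1.27% of all promoters. Of the 10 members with a promoter that rose, 4 hold it. The CXCL10 promoter (chr4:76023498-76023747, minus strand) is shown because it holds 1 match to each motif, in capitals, the interferon response element 221 and the NF-kB site 122 bases before the start:
CXCL10: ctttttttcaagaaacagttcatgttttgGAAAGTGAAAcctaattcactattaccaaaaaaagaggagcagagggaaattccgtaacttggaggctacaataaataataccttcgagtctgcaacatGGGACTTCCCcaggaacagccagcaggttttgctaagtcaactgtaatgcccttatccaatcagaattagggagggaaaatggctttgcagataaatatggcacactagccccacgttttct

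Signalling through TGF-beta and BMP ligands acts through SMAD factors and drives matrix and bone genes in mesenchymal cells. Of 28 tested genes of this signalling 11 rose (39.3%, against 11.4% of all genes) and none fell, with a median of 0.42. The count was 6 or 7 without siNT untreated R1 or any 1 of the 4 VE-822 libraries. Beside BMP4, the receptor TGFBR2 read 35.6, 32.6, 20.8 and 23.6 FPKM untreated and 92.3, 104, 84.9 and 84.6 FPKM with VE-822, a rise of 1.69 (SE 0.14, adjusted p = 3.20e-05). The SMAD target ID2 rose by 1.06, whereas ID1 differed by 0.26 (adjusted p = 0.486). The list's median was -0.07 with HU and 0.28 for R2 minus R1, the latter with the same sign as the rise. TGFBR2 differed by -0.39 with HU. Of 30 extracellular matrix genes 13 rose (43.3%, against 11.4% of all genes) and 1 fell, with a median of 0.50 against -0.19 with HU. COL5A1 and COL11A1, fibrillar collagen chains, rose by 1.92 and 1.86, and LUM, a collagen-binding proteoglycan, by 0.92. Their R2 minus R1 values were 0.78, 0.55 and 0.15. The median R2 minus R1 of the matrix genes was 0.36, also the same sign as the rise. Against R1 alone 14 matrix genes rose and against R2 alone 6 did, while the TGF-beta and BMP count was 11 and 8.

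FOXO factors are held in the cytoplasm by AKT and drive genes of antioxidant defence and growth arrest. Of 22 tested FOXO targets 12 rose (54.5%, against 11.4% of all genes) and none fell, with a median of 0.47, and the count was 12 or 13 without any 1 library, 13 against R1 alone and 11 against R2 alone. SOD2, the mitochondrial superoxide dismutase, read 6.37, 6.74, 9.52 and 5.48 FPKM untreated and 24.5, 21.0, 29.9 and 25.5 FPKM with VE-822, a rise of 1.72 (SE 0.14, adjusted p = 2.33e-05). It overlaps WTAP on the opposite strand. PIK3IP1, an inhibitor of PI3 kinase, rose by 1.56, BCL6, a transcriptional repressor, by 1.25 and TXNIP, which binds thioredoxin, by 0.92. The list's median was 0.13 with HU and -0.12 for R2 minus R1. The test of the difference was passed by 6 members, against 9.91% of all genes. The forkhead letters GTAAACA were in 2 of 19 promoters of the list and in 2.98% of all promoters. These 2 are among the 11 members with a promoter that rose. Of 33 lysosome and autophagy genes 9 rose (27.3%, against 11.4% of all genes) and 1 fell, with a median of 0.18 that was -0.06 against R1 alone and 0.36 against R2 alone. GPNMB, CTSB (cathepsin B) and NPC2, which carries cholesterol out of the lysosome, rose by 1.37, 1.35 and 0.94. CTSB read 67.0 to 94.2 FPKM untreated and 176, 201, 219 and 238 FPKM with VE-822.

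Among genes downstream of ERK and YAP more fell than rose with VE-822 alone. ERK activity induces immediate early genes and then the phosphatases that switch it off. Of 20 tested ERK feedback genes 9 fell (against 13.4% of all genes) and 3 rose (against 11.4%), with a median of -0.35. The falls numbered 10 against R1 alone and 6 against R2 alone, and they dropped to 5 without siNT VE-822 R2 or siSETD2 VE-822 R2. Of 25 immediate early genes 9 fell (36%, against 13.4% of all genes) and 4 rose (16%, against 11.4%), with a median of -0.30. Against R1 alone 11 of them fell, and against R2 alone 6. DUSP5, a nuclear ERK phosphatase, read 53.2, 44.9, 64.3 and 46.5 FPKM untreated and 19.9, 17.6, 20.6 and 20.2 FPKM with VE-822, a fall of -1.36 (SE 0.12, adjusted p = 5.33e-05). FOSL1, an AP-1 subunit, read 67.6, 45.5, 77.7 and 47.2 FPKM untreated and 27.5, 24.2, 27.7 and 27.7 FPKM with VE-822, a fall of -1.09. Against this direction EREG rose by 2.40, PHLDA1 by 1.35, NR4A2, a nuclear receptor, by 1.14 and KLF6 by 0.75, while FOS (0.63) kept its call in 5 of 8 fits without 1 library (lost without siNT untreated R1, siNT VE-822 R1 or siSETD2 VE-822 R2, adjusted p up to 0.0614). EGR1 differed by 0.33 (adjusted p = 0.190). The medians with HU were 0.01 and 0.04, and R2 minus R1 had medians of 0.17 and 0.14, opposite to the fall.

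YAP, with TEAD factors, transcribes genes of spreading and proliferation, and LATS kinases hold it out of the nucleus. Of 22 tested YAP and TEAD targets 8 fell (36.4%, against 13.4% of all genes) and none rose, with a median of -0.38, beside a median R2 minus R1 of 0.37. AXL, a receptor tyrosine kinase, read 175, 194, 90.3 and 153 FPKM untreated and 76.6, 63.1, 54.6 and 54.6 FPKM with VE-822, a fall of -1.24 (SE 0.17, adjusted p = 0.000791). CYR61, a matricellular protein, fell by 1.18, a call lost without siNT untreated R2, siNT VE-822 R2 or siSETD2 VE-822 R1 (adjusted p up to 0.0610), whereas CTGF, another classical target, differed by 0.52 in the other direction (adjusted p = 0.0907). LATS2 and PTPN14, both inhibitors of YAP and also its targets, fell by 0.43 each. Against R1 alone 4 members fell and 1 rose, and against R2 alone 9 fell. The falls dropped to 3 or 4 without siNT untreated R2, siNT VE-822 R2 or siSETD2 VE-822 R1. The TEAD letters CATTCC were in 6 of 16 promoters of the list and in 11.9% of all promoters. Of the 6 members with a promoter that fell, only 1 holds these letters.

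The counts of 5 further lists differed between the 2 sets of untreated libraries and are given for both, beside 11.4% of all genes higher and 13.4% lower in the comparison with all 4. The shares of all genes called against R1 alone and against R2 alone, given above, differed as well. Part of each list's difference is therefore shared with all genes. Of 19 heat shock genes 4 fell (21.1%), BAG3, FKBP4 and HSPA4 among them (-0.69, -0.66, -0.56), but 11 fell against R1 alone and none against R2 alone. Of 33 ribosome biogenesis genes 6 fell (18.2%), including LYAR, RRP9 and POLR1E (-0.70, -0.58, -0.45), with 16 against R1 alone and 1 against R2 alone. BAG3, FKBP4, HSPA4 and RRP9 lost their calls in 4 or 5 of the 8 fits that left out 1 library, siNT untreated R1, siNT VE-822 R2, siSETD2 untreated R1 and siSETD2 VE-822 R1 for all 4 genes. Of 77 cytosolic ribosomal protein genes none passed, with 21 lower against R1 alone and none against R2 alone. Of 22 NRF2 targets 3 rose and none fell although the median was -0.21, with 3 higher and 9 lower against R1 alone and 1 higher and none lower against R2 alone. SLC7A11, the cystine transporter, differed by 0.39 (adjusted p = 0.276). Of 33 ATF4 targets 2 rose (6.06%) and 7 fell (21.2%), with 3 higher and 8 lower against R1 alone and 2 higher and 1 lower against R2 alone. The falls numbered 10 without siSETD2 untreated R2, and 3 or 4 without siNT untreated R1 or any 1 of the 4 VE-822 libraries. PSPH, the last enzyme of serine synthesis, fell by 0.80, SESN2 by 0.68 and ATF3 by 0.60. These 3 kept their calls without any 1 library, but against R2 alone PSPH and SESN2 did not pass (adjusted p = 0.0549 and 0.0647). With HU the list's median was 0.27, and 5 members rose with the R2 minus R1 term, against 0.703% of all genes. The test of the difference was passed by 7 members, against 9.91% of all genes.

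The remaining lists are set beside 11.4% higher and 13.4% lower over all genes. Of 34 hypoxia and glycolysis genes 7 rose (20.6%) and 5 fell (14.7%), and the rises dropped to 4 without siNT untreated R1 or any 1 of the 4 VE-822 libraries. Shares in both directions were below those of all genes among cholesterol synthesis genes (3 rose and 2 fell of 29, 10.3% and 6.90%), endoplasmic reticulum chaperones (2 and none of 21, 9.52% rose) and small nucleolar RNA host genes (none and 1 of 18, 5.56% fell). Of 13 histone lysine 36 enzymes 2 rose and 1 fell (15.4% and 7.69%). PFKFB3, which sets the level of a glycolytic activator, fell by 0.68, P4HA1, a collagen prolyl hydroxylase, and ALDOC, an aldolase, rose by 0.75 and 0.70. HMGCS1, an early enzyme of sterol synthesis, fell by 0.97 (adjusted p = 0.0606 against R2 alone), and SETD3 fell by 0.49. None of 13 mitochondrially encoded transcripts passed, with a median of 0.12 beside 0.40 for R2 minus R1.

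**Figure D4:**
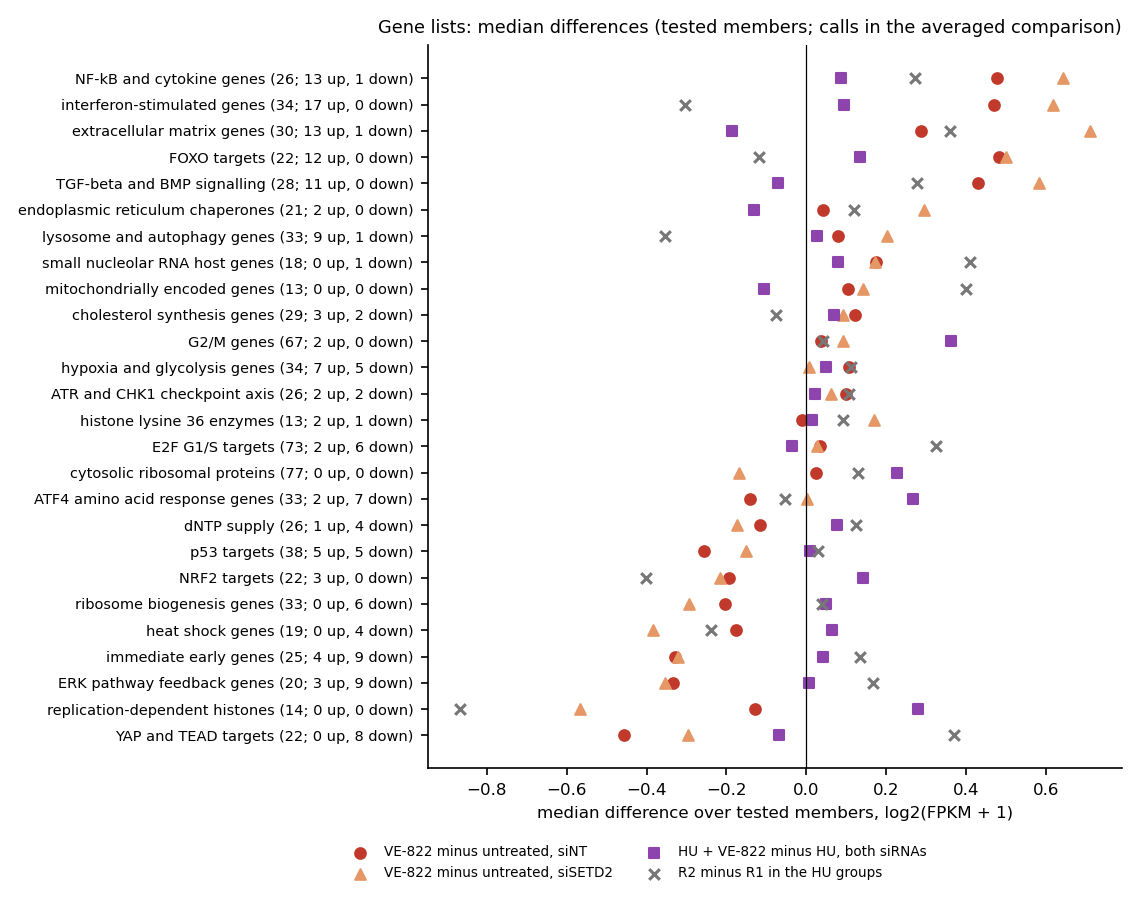
Median differences over the tested members of 26 gene lists, on the log2(FPKM + 1) scale, for VE-822 against untreated in siNT (circles) and siSETD2 (triangles), for VE-822 added to HU (squares) and for R2 minus R1 in the HU groups (crosses). Brackets give the members tested and the calls averaged over both siRNAs. FOXO targets lie highest in siNT (0.48) and extracellular matrix genes in siSETD2 (0.71). Averaged over both siRNAs, the medians were highest for NF-kB genes (0.61) and interferon-stimulated genes (0.54). G2/M genes reach 0.36 with HU.

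The response to VE-822 alone was measured separately with each siRNA. In siNT cells 307 genes rose (2.35%) and 377 fell (2.88%), and in siSETD2 cells 758 rose (5.79%) and 675 fell (5.16%), which makes 684 (5.23%) and 1433 (10.9%). Called with both siRNAs were 549 genes, 80.3% of the siNT and 38.3% of the siSETD2 calls, and all 549 had the same direction. The Pearson correlation between both responses, across genes and over separate libraries, was 0.834. The difference between the responses passed the test for no gene by limma, with 227 genes (1.73%) at an unadjusted p under 0.05 and none by voom. The smallest p-values belonged to RNU7-186P, a small nuclear RNA pseudogene within ITGB3 (3.34, adjusted p = 0.521), CCL5 (1.51, adjusted p = 0.9999) and AC233728.1 (0.98, adjusted p = 0.9999). For CCL5 the rise was 1.56 in siNT and 3.07 in siSETD2 cells, and each VE-822 library of siSETD2 cells was above each of siNT cells. Leaving out 1 library changed the counts per siRNA to 132 to 992 and 219 to 3325. The siNT count fell by over 1.5 times, to 132 to 347, without any 1 of its own 4 libraries. The siSETD2 count fell to 219 to 642 without either of its VE-822 libraries or its untreated R1 and rose to 3325 without its untreated R2.

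Markers were read as a check on the cells. Of 9 osteosarcoma or mesenchymal markers 6 were tested, with a summed level of 314 to 485 FPKM untreated and 338 to 387 FPKM with VE-822, and COL1A2 and TWIST1 were below 0.1 FPKM in all 8 libraries. RUNX2, the osteoblast factor, read 0.833, 1.44, 1.52 and 1.31 FPKM untreated and 6.13, 6.91, 5.90 and 5.85 FPKM with VE-822, a rise of 1.67. FN1, fibronectin, rose by 1.49 and VIM, vimentin, fell by 0.59, a call lost in 5 of 8 fits without 1 library (siNT untreated R1, siNT VE-822 R2, siSETD2 untreated R1 and both siSETD2 VE-822 libraries, adjusted p up to 0.0800). Of 7 epithelial markers 4 were tested and 1 fell, KRT18 by 1.03, with a summed level of 90.1 to 121 FPKM untreated and 59.2 to 68.9 FPKM with VE-822. Of 13 blood, endothelial and neural markers 3 were tested and 2 rose, ITGAM by 0.78 and CD3D by 0.60. Their summed level was 9.08 to 20.3 FPKM untreated and 13.7 to 15.0 FPKM with VE-822, and CD3E and HBA1 were at 0 in all 8 libraries. In RNA from whole cultures, fewer cells of a kind and less RNA per cell cannot be told apart.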

How the data were processed

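RNA from U2OS cells was sequenced in 16 libraries, 2 in each of 8 groups, and the authors deposited 1 table of FPKM for 58735 genes. Per the submitters' processing notes, reads were handled with STAR 2.6.1d on build hg38, with featureCounts 1.5.0-p3, FastQC and DESeq2 1.26.0 also listed. The sources used here do not give strand setting or annotation. Gene lengths of GENCODE (the 29th release) turned the deposited FPKM into whole fragments for 100% of values (tolerance 0.01 fragments), with 22310806 to 31101932 fragments per library. Overlapping genes were not separable.

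Values were analysed as log2(FPKM + 1) in limma 3.58.1 (R 4.3.3, limma-trend, 1 mean per group over 16 libraries, 8 residual degrees of freedom), for genes averaging 1 FPKM or more. Benjamini-Hochberg adjustment covered all 13088 genes, with a threshold of 0.05, and 6 contrasts were computed. All adjusted p-values are limma's. An interval of counts per gene covers counting error only and none is printed. "Against R1 alone" uses only untreated R1 libraries as controls, a setting added after seeing the data, as was the R2 minus R1 term.

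The replicate numbers paired the groups with HU: deviations from group means of same-numbered libraries had correlations of 0.604 to 0.746 in all 6 pairs of groups, and 0.363 to 0.625 in the 9 pairs with untreated groups. Between VE-822 alone and untreated groups they were -0.0517 to 0.0238, so those are not paired. This pairing rests on the data and on shared numbering, not on a label. The R2 minus R1 term is a replicate block that is 0 in the 4 VE-822 libraries.

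The named genes are the 12 largest changes in each direction, the 3 members of each list with the smallest p, a panel and the 3 genes with the smallest p for each difference in response. E2F8 and DUSP6 of the panel had means under 1 FPKM and were not tested, and a few genes that meet these rules are not reported here. Members and lists were chosen with earlier results of these data known. Motifs were searched in 27305 RefSeq promoters (GRCh38.p14) of 250 bases.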

Additional observations from a re-analysis of the deposited data

Results flagged for a closer look

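For 77 of the genes followed and reported here, the response to VE-822 without HU differed from the response with HU (limma, adjusted p from 0.000313 to 0.0495). Over all 13088 genes tested, 1297 (9.91%) passed the same test. Many followed genes were picked for their change with VE-822 alone, which is part of this difference. Their passing was therefore partly set by that choice, and the count is a description only. The values are the log2 response without HU minus that with HU, and no explanation was tested. Each value contains the comparison of VE-822 alone with untreated cells, in which a batch and the treatment cannot be told apart. The highest values were 3.57 for PCDH7, 3.20 for CYP24A1, 2.66 for HTR3A, 2.66 for NGFR, 2.65 for IGFBP5, 2.52 for CHI3L1, 2.44 for BMP4, 2.26 for EREG, 2.23 for MAF and 2.08 for TGFBR2. Next came 2.06 for CCL5, 2.01 for COL5A1, 1.92 for MMP16, 1.86 for COL11A1, 1.78 for RUNX2, 1.73 for BIRC3, 1.67 for BST2, 1.63 for CXCL10, 1.59 for KITLG, 1.49 for PHLDA1 and 1.43 for PIK3IP1. A further set was 1.37 for SLC5A3, 1.36 for GPNMB, 1.31 for SLC9A3-AS1, 1.25 for CTSB, 1.2 for SOD2, 1.17 for BCL6, 1.13 for OASL, 1.10 for NR4A2, 1.10 for LUM and 1.01 for ITGAM. The lowest of the positive values were 0.99 for NPC2, 0.91 for ABCC2, 0.89 for PMAIP1, 0.89 for P4HA1, 0.85 for DTX3L, 0.75 for ID2, 0.71 for ALDOC, 0.70 for KLF6, 0.66 for SEL1L and 0.48 for BRCA2. The most negative values were -2.15 for AC119751.6, -2.06 for MARCH4, -2.01 for SNX18P24, -1.98 for FRMD6, -1.84 for G0S2, -1.70 for HES7, -1.68 for AC090409.1, -1.66 for ZNF542P and -1.52 for TUFT1. These were followed by -1.33 for FOSL1, -1.31 for CNRIP1, -1.17 for PSPH, -1.12 for AXL, -1.08 for PEAR1, -1.03 for DUSP5, -1.0 for DGKA, -0.98 for KRT18 and -0.97 for CENPA. Values nearer to 0 were -0.83 for LYAR, -0.77 for NME1, -0.77 for SESN2, -0.76 for PLK1, -0.76 for ATF3, -0.74 for PFKFB3, -0.71 for IMPDH1, -0.70 for FHOD1 and -0.66 for STARD13. The negative values closest to 0 were -0.66 for CDC20, -0.66 for SNHG17, -0.59 for NEXN, -0.59 for SETD3, -0.58 for EFR3B, -0.52 for COL17A1, -0.52 for CDC25A, -0.48 for TNFRSF10B and -0.42 for AC243964.3. In CENPA, PLK1 and CDC20 the difference came with a positive change on adding VE-822 to HU (1.07, 0.56 and 0.45), and VE-822 alone gave 0.10, -0.20 and -0.21. With 2 libraries per group no group was large enough for an outlier to be tested.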

How the results depend on the processing

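Of 145 called genes among the 185 followed, 94 stayed past the threshold in each of the 18 alternatives run, and none reversed. Of their 2610 alternative values 2301 kept the call and 309 lost it. Counts below are called genes for VE-822 alone over both siRNAs, in siNT and in siSETD2, then for the difference between siRNAs, for VE-822 added to HU, and for the difference without and with HU. A pseudocount of 0.1, median-ratio rescaling and voom on recovered fragments left these 6 counts within 1.5 times. Without a filter on low values the difference between siRNAs gave 30 genes and VE-822 added to HU gave 25. With recovered totals VE-822 added to HU gave 2, and the median of all genes moved from -0.03 to -0.06. Fitting the 8 compared libraries alone gave 372 in siNT and 760 in siSETD2. With only untreated R2 as controls the counts were 1821, 255 and 632, and with only untreated R1 the siSETD2 count was 3325.

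A replicate block over all 8 groups gave 5122, 1944, 3421, 20 for VE-822 added to HU and 3319 for the difference without and with HU. The block limited to 6 groups (none with only VE-822) gave 5874, 2780, 4364, 172 and 4329. Neither block gave a call for the difference between siRNAs. VE-822 alone and untreated libraries share only a number, so these counts are not used for that comparison. Nor are they used for the difference without and with HU, which contains it.

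Leaving out 1 library gave 1772 to 4599 over both siRNAs, 132 to 992 in siNT, 219 to 3325 in siSETD2, 0 for their difference, and 4346 to 5043 genes without overlap, against 4073 in all 8 libraries. A group left with 1 library is assumed to vary like the others.

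Genes that reversed had not passed. With R2 controls MT-ND4L gave -0.079, SYP 0.17, ATR 0.072 and GDF15 0.28, and with R1 controls FOXM1 gave 0.16. With recovered totals ATF4 gave -0.0042. Leaving out 1 library gave ATR -0.078 to 0.052, GDF15 -0.43 to 0.071, ATF4 -0.050 to 0.13 and FOXM1 -0.27 to 0.078. The causes were not tested. The effect of depth was not separated from that of having 2 libraries per group.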
